A study of Homo sapiens with 12 samples.

Results

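The p21-activated kinases (PAKs) are serine/threonine kinases that act downstream of the small GTPases RAC and CDC42, switches that relay signals to the actin cytoskeleton. Group I kinases (PAK1, PAK2 and PAK3) are held inactive by their own regulatory region until a GTPase binds, whereas group II kinases (PAK4, PAK5 and PAK6) bind CDC42 but are kept in check in other ways. In carcinoma cells the family is known for effects on adhesion, migration and survival. PAK4 is one of the super-enhancer genes of the study, a super-enhancer being a long stretch of strongly bound enhancer sequence near a gene.

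The genes described are PAK1, PAK2, PAK4 and PAK6, found by symbol among the 57755 gene identifiers of each library, so 4 genes of 57755. Both other relatives, PAK3 and PAK7 (an older symbol of PAK5), did not exceed 0.00213 and 0.00453 FPKM in any of the 12 libraries and were not tested. RNA-seq was made from 2 human esophageal squamous cell carcinoma lines, TE7 and KYSE510, after THZ1, a covalent inhibitor of the transcription kinase CDK7, or after its solvent DMSO. Each line gave 1 library for each of 6 conditions: DMSO, 50 nM THZ1 for 2, 4, 6 and 12 h, and 200 nM THZ1 for 6 h. TE7 was grown in DMEM and KYSE510 in RPMI-1640, so line and medium cannot be told apart. The DMSO libraries carry a title of 0 h and a time label of 12 h, and no DMSO library stands at 2, 4 or 6 h, so THZ1 exposure and time in culture cannot be told apart either. The 2 lines served as the replicates of each condition, and p-values therefore measure only the spread between these libraries.

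Values are FPKM, fragments scaled to transcript length and library size, computed by the authors. No file used here states how many fragments lie behind a library. The authors' 95% upper bound lay 3.83% to 8.02% above the FPKM for PAK4, 4.53% to 6.61% for PAK2 and 5.67% to 16.5% for PAK1. It lay 5.04% to 45.7% above it for PAK6, widest in the KYSE510 library at 200 nM. FPKM summed to between 459201 and 729515 over all genes in TE7 libraries and to between 383975 and 535976 in KYSE510 libraries. In both lines all 8 squamous markers and all 4 general epithelial markers had a median of at least 1 FPKM. Of markers of other cell types, 1 of 6 fibroblast genes, 1 of 5 leukocyte genes and 0 of 2 endothelial genes reached that level in each line. The squamous markers summed to 1560 to 2490 FPKM in TE7 and 1670 to 4480 FPKM in KYSE510, and the leukocyte markers to 4.06 to 15.1 and 2.07 to 12.7 FPKM. The leukocyte gene PTPRC was at most 0.0387 FPKM in TE7 and 0.117 FPKM in KYSE510, and the endothelial gene CDH5 at most 0.00379 and 0.58 FPKM. The KYSE510 DMSO library stood apart: across genes, DMSO and 50 nM THZ1 for 2 h correlated at r = 0.976 in TE7 and at r = 0.879 in KYSE510. In that DMSO library the squamous keratins KRT14 and KRT6A were at 28.7 and 14.4 FPKM, against KYSE510 medians of 469 and 1560 FPKM. KRT14 was lower still, at 2.62 FPKM, in the KYSE510 library at 200 nM. The kinases and the list counts at 12 h against DMSO are therefore also given without the KYSE510 DMSO library. Calls of other named genes at 12 h held without it unless stated.

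PAK4 and PAK2 were both lower after 12 h of 50 nM THZ1 and after 6 h of 200 nM THZ1 than in DMSO, in both lines. PAK4 fell by 1.60 on the log2(FPKM + 1) scale at 12 h and by 2.14 at 200 nM. PAK2 fell by 1.21 and by 0.90 in the same comparisons. PAK1 and PAK6 passed the threshold in neither, and PAK1 was lower in TE7 and higher in KYSE510. In KYSE510 both were measured against the DMSO library that stood apart, where PAK6 was at 1.61 FPKM. At 12 h of 50 nM THZ1 PAK1 was at 78.6% of its 2 h level in TE7 and 78.7% in KYSE510. At 200 nM it was at 70.1% and 184.9% of its level at 50 nM for 6 h.

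The start regions of the 2 genes that fell are set out here with that of PAK1, which did not pass, so that their sequence can be read beside the values. They were taken from RefSeq on GRCh38.p14, from 250 bases before to 50 bases after a gene start, and are printed in the direction of transcription. These starts were not matched to the hg19 intervals of the expression values. A region, that of PAK1 included, may therefore lie inside its gene, and which start the cells use was not tested. Capitals mark matches on either strand to the CCAAT box (CCAAT) and the GC box (GGGCGG), with overlapping matches joined.
PAK4, chr19:39125536-39125835, plus strand: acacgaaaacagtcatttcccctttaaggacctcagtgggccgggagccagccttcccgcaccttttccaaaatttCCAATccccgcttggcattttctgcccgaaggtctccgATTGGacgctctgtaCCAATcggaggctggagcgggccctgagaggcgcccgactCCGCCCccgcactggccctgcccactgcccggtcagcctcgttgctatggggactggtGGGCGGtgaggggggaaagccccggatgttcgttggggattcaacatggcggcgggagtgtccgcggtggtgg
PAK2, chr3:196739607-196739906, plus strand: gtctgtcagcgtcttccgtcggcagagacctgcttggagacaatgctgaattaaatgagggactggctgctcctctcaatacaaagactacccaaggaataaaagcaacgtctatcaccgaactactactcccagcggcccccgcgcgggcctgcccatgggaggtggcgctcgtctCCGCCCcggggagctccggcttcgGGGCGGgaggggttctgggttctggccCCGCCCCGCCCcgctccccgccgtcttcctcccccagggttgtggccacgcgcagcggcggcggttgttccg
PAK1, chr11:77411922-77412221, minus strand: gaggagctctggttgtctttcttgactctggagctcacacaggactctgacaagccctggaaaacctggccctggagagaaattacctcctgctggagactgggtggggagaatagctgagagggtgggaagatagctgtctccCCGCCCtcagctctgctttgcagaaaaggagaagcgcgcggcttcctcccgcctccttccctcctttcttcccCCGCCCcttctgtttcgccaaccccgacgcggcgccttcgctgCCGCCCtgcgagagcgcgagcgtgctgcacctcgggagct
The PAK4 region held 3 CCAAT boxes and 2 GC boxes, the PAK2 region 0 and 4, and the PAK1 region 0 and 3. Of 35116 RefSeq start regions of the same length, 34.6% held a CCAAT box and 45.0% a GC box. The TATA box (TATAAA), found in 11.5% of the 35116, and the AP-1 site (TGANTCA), found in 7.71%, had no match in the 3 regions. All 3 were richer in C and G than the median start region (58.7%), at 63.3% for PAK4, 65.7% for PAK2 and 62.0% for PAK1. They held 22, 27 and 18 CpG dinucleotides in that order, against a median of 14. A second RefSeq start of PAK4, at chr19:39167057-39167356, held 0 CCAAT boxes and 4 GC boxes. Both starts of PAK6 were searched too: that at chr15:40239613-40239912 held 1 CCAAT box and 0 GC boxes, and that at chr15:40252928-40253227 held 0 and 1. A match is a description of letters and not a mapped binding site.

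PAK4 (ENSG00000130669, hg19 chr19:39616410-39673456) is a group II kinase that binds CDC42 and acts on the cytoskeleton and cell adhesion. In TE7 it had 35.3 FPKM in DMSO, then 24.1, 23.9, 20.1 and 7.86 FPKM after 2, 4, 6 and 12 h of 50 nM THZ1. In KYSE510 it had 27.0 FPKM in DMSO and 27.4, 26.8, 25.9 and 11.5 FPKM at the same times. After 6 h of 200 nM THZ1 it had 7.74 FPKM in TE7 and 4.97 FPKM in KYSE510. Before 12 h, with 1 library per line and time, TE7 was at 68.3% of its DMSO level at 2 h. KYSE510 stayed between 95.8% and 101% of its own through 6 h, measured against the DMSO library that stood apart. The slopes of PAK4 over the hours, fitted below, did not differ between the lines past the threshold (limma, adjusted p = 0.456). At 12 h both libraries lay below both DMSO libraries, at 22.3% of DMSO in TE7 and 42.4% in KYSE510, and 39.5% of all 15610 genes tested were separated in that way. Both libraries at 200 nM also lay below both DMSO libraries, at 21.9% and 18.4%, and so did 47.3% of genes tested.

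**Figure D1:**
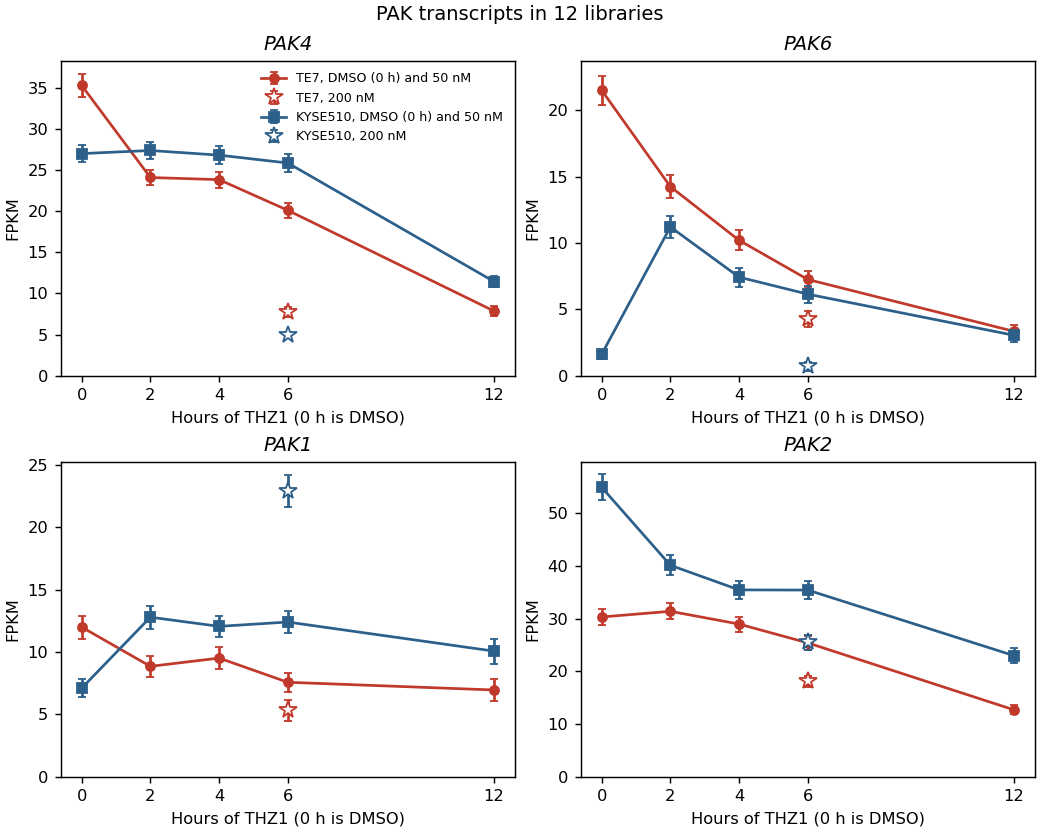
FPKM of PAK4, PAK6, PAK1 and PAK2 (vertical axes) against hours of THZ1 (horizontal axes, DMSO at 0 h) in 12 libraries, with circles for TE7, squares for KYSE510, stars for 200 nM and bars for the authors' 95% bounds. PAK4 reaches 7.86 FPKM in TE7 and 11.5 FPKM in KYSE510 at 12 h, while PAK6 in KYSE510 starts from 1.61 FPKM in DMSO.

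Differences were tested with limma on log2(FPKM + 1) over the 15610 genes, with the cell line as a block and Benjamini-Hochberg adjustment over all of them. PAK4 changed at 12 h by -1.60 ± 0.29 (SE, adjusted p = 0.00598). At 200 nM it changed by -2.14 ± 0.29 (SE, adjusted p = 0.00132). The threshold was an adjusted p of 0.05, which 28.4% of all genes passed at 12 h (3.27% higher and 25.2% lower) and 38.5% at 200 nM (3.22% higher and 35.3% lower). A fall was thus common among all genes, and the calls of PAK4 and PAK2 are to be read against those shares. As PAK4 was named by the study from lines treated in this way, its fall is not independent evidence. PAK4 without the KYSE510 DMSO library was at -1.85 at 12 h (adjusted p = 0.0115) and at -2.39 at 200 nM (adjusted p = 0.00363). Leaving out the TE7 library at 12 h brought PAK4 at 12 h to -1.33 with an adjusted p of 0.0509. At 2, 4 and 6 h PAK4 differed from DMSO by -0.26, -0.28 and -0.42 (adjusted p = 0.749, 0.655 and 0.412), and none of the 4 kinases passed at those times, when 0.0128%, 0.0769% and 4.71% of genes did. Without the KYSE510 DMSO library and both 200 nM libraries, PAK4 at 6 h was at -0.76 with an adjusted p of 0.0199.

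The scale matters for all these values, because FPKM are relative to each library. The median of all genes tested lay at -0.42 at 12 h and -0.65 at 200 nM, so that PAK4 was 1.19 and 1.49 below it. When libraries were rescaled by the median of ratios, which brought those medians to 0.03 and -0.01, PAK4 was at -1.02 (adjusted p = 0.0272) and -1.35 (adjusted p = 0.00997). These are bulk libraries, in which a smaller share of cells with PAK4 RNA and less PAK4 RNA per cell cannot be told apart.

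Higher dose at the same time gave a lower level of PAK4. At 6 h it had 7.74 FPKM at 200 nM against 20.1 FPKM at 50 nM in TE7, and 4.97 FPKM against 25.9 FPKM in KYSE510. Both libraries at 200 nM thus lay below both at 50 nM, as did those of 40.6% of genes tested. The limma difference was -1.72 ± 0.29 (SE, adjusted p = 0.00506), and 24.8% of genes passed this test (21.9% lower). It stood at -1.54 with an adjusted p of 0.0646 without the KYSE510 library at 50 nM for 6 h. PAK2 differed between the doses by -0.46 (adjusted p = 0.138), PAK6 by -1.35 (adjusted p = 0.19) and PAK1 by 0.20 (adjusted p = 0.794). PAK2's difference had the other sign, 0.16, after median-of-ratios scaling. PAK6 passed at the same -1.35 when either DMSO library was left out (adjusted p = 0.036 without that of KYSE510).

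PAK6 (ENSG00000137843, hg19 chr15:40509629-40569688), the other group II kinase with reads, is known as a partner of the androgen receptor. In TE7 it had 21.5 FPKM in DMSO and 14.3, 10.2, 7.25 and 3.34 FPKM after 2, 4, 6 and 12 h of 50 nM THZ1. In KYSE510 it had 1.61 FPKM in DMSO and 11.2, 7.43, 6.14 and 3.04 FPKM at those times. At 200 nM it had 4.27 FPKM in TE7 and 0.709 FPKM in KYSE510. From 2 h to 12 h the levels went down step by step in both lines, but the KYSE510 DMSO library lay below all 4 KYSE510 libraries at 50 nM. With all libraries PAK6 differed from DMSO by -0.87 ± 0.70 at 12 h (SE, adjusted p = 0.385) and by -1.35 ± 0.70 at 200 nM (SE, adjusted p = 0.157). Without the KYSE510 DMSO library the differences were -2.16 (adjusted p = 0.0209) and -2.64 (adjusted p = 0.00807). Without the TE7 DMSO library, the PAK6 difference at 12 h was 0.42 (adjusted p = 0.551). The annotated interval of PAK6 shares its first 3709 bases with the end of BUB1B, a mitotic checkpoint kinase at 10.6 to 42.5 FPKM. It also shares 58969 bases with RP11-133K1.2, which did not exceed 0.246 FPKM. No source used here says how reads in shared bases were assigned. In the KYSE510 DMSO library BUB1B had 30.3 FPKM beside the 1.61 FPKM of PAK6. The part of these overlaps in the values of PAK6 was not tested.

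PAK2 (ENSG00000180370, hg19 chr3:196466728-196559518), a widely expressed group I kinase that caspases can cleave into an active fragment, was the most abundant of the 4 in 11 of 12 libraries. In TE7 it had 30.3 FPKM in DMSO and 31.4, 29.0, 25.4 and 12.7 FPKM after 2, 4, 6 and 12 h of 50 nM THZ1. In KYSE510 it had 55.0 FPKM in DMSO and 40.2, 35.5, 35.4 and 23.0 FPKM. At 200 nM it had 18.1 FPKM in TE7 and 25.5 FPKM in KYSE510. At 12 h the shares of DMSO were close, 41.9% in TE7 and 41.8% in KYSE510, the latter against the DMSO library that stood apart. Against 2 h of 50 nM THZ1 they were 40.4% in TE7 and 57.25% in KYSE510. PAK2 fell by 1.21 ± 0.21 at 12 h (SE, adjusted p = 0.00521) and by 0.90 ± 0.21 at 200 nM (SE, adjusted p = 0.0114). After median-of-ratios scaling both calls were lost, at -0.61 (adjusted p = 0.0767) and -0.06 (adjusted p = 0.868). They were lost without the cell line as a block too, at adjusted p = 0.0947 and 0.162, and the call of PAK2 at 200 nM after rescaling to equal sums of FPKM, at -0.54 (adjusted p = 0.116). Both held without the KYSE510 DMSO library, at -1.03 (adjusted p = 0.0194) and -0.72 (adjusted p = 0.0446).

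PAK1 (ENSG00000149269, hg19 chr11:77032752-77185680), the best studied group I kinase, lies in a part of chromosome arm 11q that is often gained in carcinomas. In TE7 it had 12.0 FPKM in DMSO and 8.85, 9.51, 7.57 and 6.95 FPKM after 2, 4, 6 and 12 h of 50 nM THZ1. In KYSE510 it had 7.10 FPKM in DMSO and 12.8, 12.1, 12.4 and 10.1 FPKM. At 200 nM it had 5.31 FPKM in TE7 and 22.9 FPKM in KYSE510, its lowest and its highest value in the 12 libraries. Each THZ1 library thus lay below DMSO in TE7 and above it in KYSE510, where the DMSO library was the one that stood apart. The limma difference from DMSO was -0.13 ± 0.50 at 12 h (SE, adjusted p = 0.871), and its 95% interval ran from -1.29 to 1.03. At 200 nM it was 0.26 ± 0.50 (SE, adjusted p = 0.706), with an interval from -0.90 to 1.42. The sign at 12 h was the other one, 0.43, after median-of-ratios scaling. Without the KYSE510 DMSO library and both 200 nM libraries PAK1 at 12 h was at -0.71 (adjusted p = 0.0104), and without the KYSE510 DMSO library alone at -0.85 (adjusted p = 0.254).

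**Figure D2:**
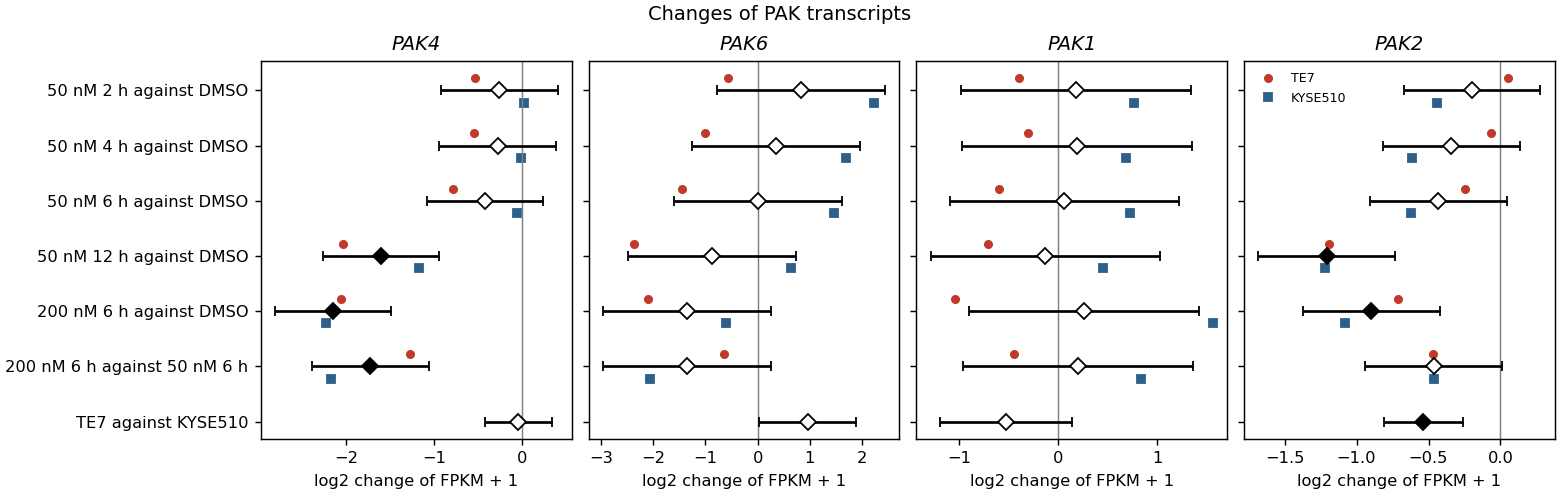
Change of each kinase on the log2(FPKM + 1) scale (horizontal axes) in 7 comparisons, as diamonds with the 95% interval from limma, filled where the adjusted p passed, and within TE7 (circles) and KYSE510 (squares). PAK4 and PAK2 lie below 0 with their intervals at 12 h and at 200 nM, and the intervals of PAK1 and PAK6 cross 0 there.

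Within the 50 nM course, the last time was set against the first, which leaves the DMSO libraries out of the contrast. PAK4 was lower at 12 h than at 2 h, with a log2 difference of -1.35 ± 0.29 (SE, adjusted p = 0.0152). PAK2 differed by -1.01 ± 0.21 (SE, adjusted p = 0.0133), PAK6 by -1.70 ± 0.70 (SE, adjusted p = 0.121) and PAK1 by -0.31 ± 0.50 (SE, adjusted p = 0.709). Of all genes 21.9% passed this test. Leaving out either library at 2 h or the TE7 library at 12 h ended the call of PAK4, at adjusted p = 0.114, 0.0959 and 0.113. The same omissions ended that of PAK2, at adjusted p = 0.0763, 0.125 and 0.0909. Median-of-ratios scaling also ended both calls, of PAK4 at -0.75 (adjusted p = 0.0929) and of PAK2 at -0.40 (adjusted p = 0.264), and PAK2 lost its call without the block (adjusted p = 0.18). PAK6 passed at the same -1.70 when either DMSO library was left out (adjusted p = 0.0184 for each), and without the KYSE510 DMSO library and both 200 nM libraries (adjusted p = 0.000335).

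A line was fitted through DMSO, taken as 0 h, and the 4 times at 50 nM, with a slope for each line, over 10 libraries. PAK4 fell by 0.131 per hour on the log2 scale (adjusted p = 0.000557), which is -1.57 ± 0.20 (SE) over 12 h. PAK2 fell by 0.099 per hour (adjusted p = 0.000725), which is -1.19 ± 0.16 (SE) over 12 h. Of all genes tested 46% had a slope that passed, and 39.1% a falling one. PAK6 had a slope of -0.105 per hour (adjusted p = 0.105) and PAK1 one of -0.018 per hour (adjusted p = 0.498). Without the KYSE510 DMSO library PAK6 was at -0.173 per hour (adjusted p = 3.84e-05), and from 2 to 12 h alone it was at -0.165 (adjusted p = 4.23e-05). PAK1 without the KYSE510 DMSO library was at -0.042 per hour (adjusted p = 0.0149). The slopes of PAK4 and PAK2 rested in part on the last time: without both 12 h libraries they were -0.064 (adjusted p = 0.0717) and -0.072 (adjusted p = 0.0591). Median-of-ratios scaling brought PAK2 to -0.046 per hour (adjusted p = 0.0352). No slope of the 4 kinases differed between TE7 and KYSE510 past the threshold, with adjusted p between 0.44 and 0.826, where 0.0705% of genes did.

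PAK4 was compared with each relative in the same libraries, as the difference of their log2(FPKM + 1) values. Since PAK4 was named by the study from lines so treated, these tests are not independent evidence of its fall either. An exact permutation test shuffled the hours within each line (14400 arrangements, two-sided), with Benjamini-Hochberg adjustment over the 3 relatives. PAK4 fell faster than PAK1 by 0.113 per hour (exact p = 0.000625, adjusted p = 0.00187). The slope of the difference was -0.11 per hour in TE7 and -0.12 in KYSE510, and the change over 12 h was -1.36. Against PAK2 the slope of the difference was -0.032 per hour (exact p = 0.182, adjusted p = 0.273). Against PAK6 it was -0.026 (exact p = 0.61), positive in TE7 at 0.033 and negative in KYSE510 at -0.086. Without the 12 h libraries the difference from PAK1 was -0.074 per hour (exact test, adjusted p = 0.0938) and that from PAK2 was 0.008. Without the DMSO libraries the difference from PAK1 was -0.11 per hour (exact test, adjusted p = 0.0469) and that from PAK6 was 0.022.

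**Figure D3:**
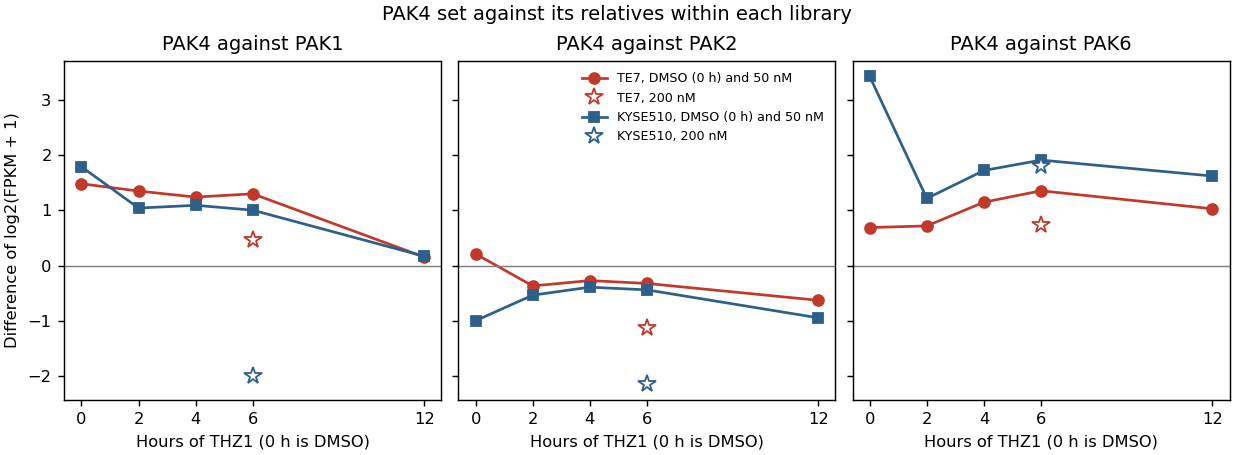
Difference of log2(FPKM + 1) between PAK4 and PAK1, PAK2 or PAK6 (vertical axis) against hours of THZ1 (horizontal axes, DMSO at 0 h), 1 point per library, with stars for 200 nM. The difference from PAK1 goes down over 12 h in both lines, and that from PAK6 in KYSE510 is highest in DMSO.

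The 4 kinases together had 99.2 FPKM in DMSO in TE7 and 78.6, 72.6, 60.4 and 30.9 FPKM after 2, 4, 6 and 12 h of 50 nM THZ1. In KYSE510 they had 90.7 FPKM in DMSO and 91.6, 81.8, 79.9 and 47.6 FPKM. At 200 nM the sum was 35.4 FPKM in TE7 and 54.1 FPKM in KYSE510. PAK4 made up 25.5% of the sum at 12 h against 35.6% in DMSO in TE7, and 24.1% against 29.8% in KYSE510. In KYSE510 at 200 nM its share was 9.19%, and PAK1 took 42.4% of the sum there, against 7.82% in DMSO. In TE7 at 200 nM PAK4 still held 21.9% and PAK1 15.0%. Each share rests on 1 library, and in KYSE510 the libraries in DMSO and at 200 nM were unlike those at 50 nM in KRT14. FPKM are per length of transcript, so these shares compare levels between genes.

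**Figure D4:**
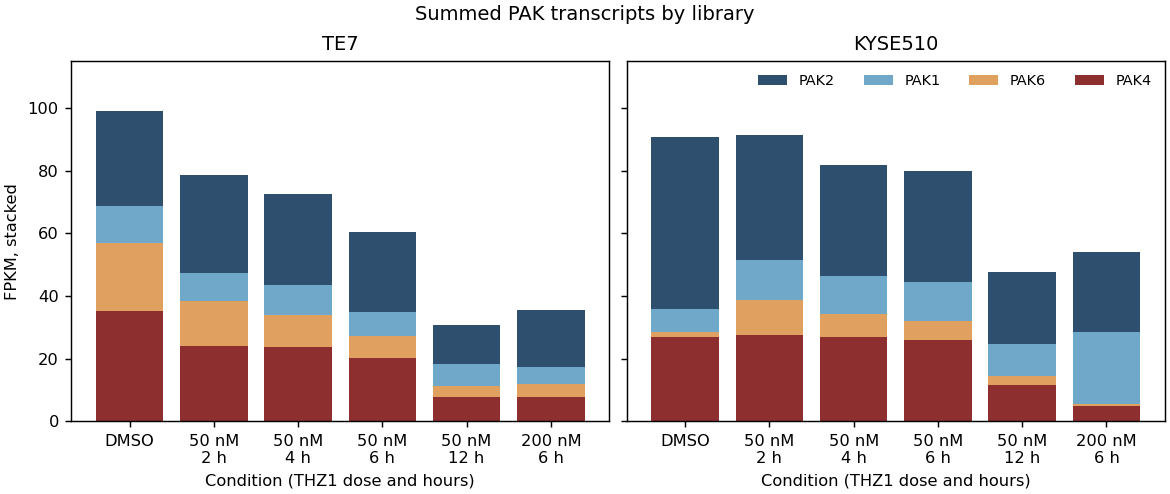
FPKM of the 4 kinases stacked (vertical axis) in 1 bar per library for each condition, TE7 and KYSE510. The sum is 30.9 FPKM in TE7 and 47.6 FPKM in KYSE510 at 12 h, and PAK1 is the second largest part in KYSE510 at 200 nM.

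Over all 6 conditions the kinases ordered differently in the 2 lines. In TE7 the mean levels were 24.5 ± 7.52 FPKM for PAK2, 19.8 ± 10.6 for PAK4, 10.1 ± 6.86 for PAK6 and 8.36 ± 2.31 for PAK1 (SD over 6 conditions). In KYSE510 they were 35.8 ± 11.5 FPKM for PAK2, 20.6 ± 9.82 for PAK4, 12.9 ± 5.35 for PAK1 and 5.02 ± 3.99 for PAK6. Neighbours in these orders lay closer than the larger of their SDs, except PAK2 and PAK4 and also PAK1 and PAK6, both in KYSE510. PAK2 was lower in TE7 than in KYSE510, with a limma difference of -0.54 ± 0.12 (SE, adjusted p = 0.00845). Of all genes 46.3% passed this comparison, 28.9% higher in TE7 and 17.5% lower. PAK6 (0.96, adjusted p = 0.083), PAK1 (-0.53, adjusted p = 0.17) and PAK4 (-0.04, adjusted p = 0.849) did not pass. PAK1 did pass in 4 alternatives: at -0.77 without the DMSO library of either line (adjusted p = 0.0408 and 0.0406), at -0.85 after rescaling to equal sums of FPKM (adjusted p = 0.044) and at -0.48 without the KYSE510 DMSO library and both 200 nM libraries (adjusted p = 0.00305). In the last of these PAK6 passed as well, at 0.26 (adjusted p = 0.0352). The sign for PAK4 turned to 0.02 or 0.05 when a library at 6 h or 12 h of 50 nM was left out. Relative to PAK2, PAK4 was higher in TE7 than in KYSE510 in 6 of 6 conditions, by a mean of 0.49 (exact permutation test over 64 swaps of the line labels, two-sided, p = 0.0312, the smallest it can give, adjusted p = 0.0469). Relative to PAK6 it was lower in TE7 in 6 of 6 conditions, by a mean log2 difference of -1.01 (exact p = 0.0312, adjusted p = 0.0469). Relative to PAK1 the mean difference was 0.48, in 4 of 6 conditions (exact p = 0.312). Each line gave 1 library per condition, so this test measures only agreement across the 6 conditions of these 2 lines. Of single genes tested, 39.1% had the same direction between the lines in all 6 conditions.

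To place the profiles among all genes, each gene of at least 5 FPKM on average was centred within each line and compared over the 12 libraries. The measure was the root mean square difference of log2(FPKM + 1), over 9169 genes, and is a description. Nearest to PAK4 were MAP3K11, a MAP kinase kinase kinase also known as MLK3 (0.12), PI4KB, a phosphatidylinositol kinase (0.128), SNAP47 (0.146), the chaperone DNAJC5 (0.148) and the autophagy receptor NBR1 (0.151). Over all 12 libraries PAK2 and PAK6 stood much farther from PAK4, at ranks 2172 and 2320 with differences of 0.513 and 0.523, and PAK1 at rank 7696 with 0.933. All differences in this paragraph include the KYSE510 DMSO library that stood apart, where PAK6 was at 1.61 FPKM beside 27.0 FPKM for PAK4. PAK1 had its lowest KYSE510 value there, 7.10 FPKM, and its highest, 22.9 FPKM, at the higher THZ1 dose. How far these libraries set the ranks was not tested. PAK2 had the closest neighbours of the 4: the histidine methyltransferase SETD3 (0.0853), ABHD2, PARP4, VRK2 and TBCK (0.0922). Nearest to PAK1 were DDRGK1 (0.146), SCARA3, SYNGR1, PMS2P4 and FEZ1 (0.169). Those of PAK6 were the flippase ATP8B2 (0.223), the interferon transcription factor IRF9 (0.225), CCDC137, TSC22D4 and ENDOV (0.259).

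Upstream of the kinases stand the exchange factors that load RAC and CDC42. Of 19 tested, 1 rose and 6 fell at 12 h, where 3.27% of all genes rose and 25.2% fell, so that these shares were near those of all genes. The list's median was -0.11 beside -0.42 for all genes. The counts were 3 and 2 after median-of-ratios scaling, and 1 and 3 without the KYSE510 DMSO library. Here and in the lists below, the shares of all genes belong to the main fit, and those under the alternatives are not given. The scaling also raised the median of all genes, so list counts after it are no result about a list by themselves. VAV3, an exchange factor that acts below growth factor receptors, had 1.22 FPKM at 12 h against 10.3 FPKM in DMSO in TE7, and 3.17 against 28.2 FPKM in KYSE510. It fell by 2.58 ± 0.23 (SE, adjusted p = 0.00108), and by 3.13 at 200 nM (adjusted p = 0.00037). ARHGEF4, another exchange factor for RAC and CDC42, fell by 2.34 (adjusted p = 0.00226), SOS1 fell by 1.37 (adjusted p = 0.0139) and TIAM1 fell by 1.03 (adjusted p = 0.0158). The last 2 calls were lost with median-of-ratios scaling, and also in the absence of the KYSE510 DMSO library (adjusted p = 0.0602 for SOS1 and 0.0506 for TIAM1). ITSN1, a scaffold and exchange factor for CDC42, is named after its value was seen as the 1 that rose (0.94, adjusted p = 0.0147).

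Among adaptors, scaffolds and regulators of PAKs, 0 of 17 tested rose and 3 fell at 12 h, with a median of -0.65 beside -0.42 for all genes. A fall was no more frequent here than the 25.2% of all genes. The counts were 0 and 5 without the KYSE510 DMSO library. FAM212A, the older symbol of the PAK4 inhibitor INKA1, had 1.14 FPKM at 12 h against 7.62 FPKM in DMSO in TE7, and 0.632 against 2.54 FPKM in KYSE510. Its fall was 1.56 ± 0.32 (SE, adjusted p = 0.0103), and 2.04 at 200 nM (adjusted p = 0.00255). The receptor kinase ERBB2 fell by 1.24 (adjusted p = 0.0385) and by 2.17 at 200 nM (adjusted p = 0.00318). PPM1F, a phosphatase that switches group I PAKs off, fell by 0.95 at 12 h (adjusted p = 0.0399) but was higher at 200 nM, at 0.84 (adjusted p = 0.0478). Neither call of PPM1F, at 12 h or at 200 nM, held without the KYSE510 DMSO library. At 200 nM 1 of the 17 rose and 10 fell, where 3.22% of all genes rose and 35.3% fell, with a median of -1.24 beside -0.65 for all genes. They became 0 and 9 without the KYSE510 DMSO library. After median-of-ratios scaling the list had 2 higher and 1 lower at 12 h, where FAM212A was still called and ERBB2 and PPM1F were not, and 3 and 4 at 200 nM.

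Downstream, 1 of 31 substrates and effectors tested rose and 5 fell at 12 h, shares no higher than the 3.27% and 25.2% of all genes. The median was -0.30 beside -0.42 for all genes, and without the KYSE510 DMSO library 2 rose and 4 fell. LIMK1, the kinase through which PAKs inactivate cofilin, had 7.03 FPKM at 12 h against 19.6 FPKM in DMSO in TE7, and 10.1 against 22.7 FPKM in KYSE510. It fell by 1.23 ± 0.19 (SE, adjusted p = 0.00342), and the muscle-type cofilin CFL2 by 1.80 (adjusted p = 0.00332). Of the slingshot phosphatases, which reactivate cofilin, SSH3 fell by 1.86 (adjusted p = 0.0136), SSH2 rose by 1.22 (adjusted p = 0.0105) and SSH1 was at 0.44 (adjusted p = 0.156). SSH3 lost its call without the KYSE510 DMSO library (adjusted p = 0.071). At 200 nM SSH2 was lower, at -0.78 (adjusted p = 0.0419), and LIMK1, CFL2 and SSH3 were lower too, at -0.99, -2.57 and -3.16 (adjusted p = 0.00522, 0.000641 and 0.00127). After median-of-ratios scaling the list had 7 higher and 2 lower at 12 h, with LIMK1 at -0.65 (adjusted p = 0.0363), CFL2 at -1.21 (adjusted p = 0.0229) and SSH3 no longer called.

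The study names 4 further super-enhancer genes beside PAK4. All 5 were chosen on lines treated in this way, so the direction of PAK4 and of the others is not independent evidence. YAP1, a transcriptional co-activator of the Hippo pathway, had 32.9 FPKM at 12 h against 59.2 FPKM in DMSO in TE7, and 32.2 against 113 FPKM in KYSE510. It fell by 1.30 (adjusted p = 0.0295), and without the KYSE510 DMSO library it was at -0.67 (adjusted p = 0.0949), and after median-of-ratios scaling at -0.69 (adjusted p = 0.228). The cochaperone DNAJB1 (-1.34, adjusted p = 0.0681), the sterol regulator SREBF2 (-1.11, adjusted p = 0.0975) and RUNX1 (-0.93, adjusted p = 0.22) did not pass at 12 h. At 200 nM PAK4, YAP1 and DNAJB1 passed, all lower, with DNAJB1 at -1.89 (adjusted p = 0.0155). Of all genes 25.2% were called lower at 12 h and 35.3% at 200 nM, and 5 genes are too few to set against these shares.

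Genes starting within 500 kb of each kinase were counted in the same way, by their hg19 starts. Around PAK4 31 were tested at 12 h, of which 1 rose and 9 fell, with a median of -0.55 beside -0.42 for all genes. Of all genes 3.27% rose and 25.2% fell at 12 h, which holds as background for each neighbourhood here. The share that fell around PAK4 was near that of all genes. Leaving out the KYSE510 DMSO library gave 0 and 8. PLEKHG2 fell by 1.50 (adjusted p = 0.0152), MED29, a Mediator subunit 265533 bases from the PAK4 start, by 1.26 (adjusted p = 0.00881), EID2 by 1.20 (adjusted p = 0.00683) and FBXO17 by 1.17 (adjusted p = 0.0178). SUPT5H, a transcription elongation factor 310386 bases away, is named after its value was seen as the 1 that rose (1.05, adjusted p = 0.0335), a call lost without the KYSE510 DMSO library (adjusted p = 0.121). Median-of-ratios scaling left 7 higher and 0 lower there, but it also raised the median of all genes. The shares of all genes called after it are not given, so these counts cannot be set against them. Around PAK6 18 were tested, of which 1 rose and 9 fell, with a median of -1.12, against 1 and 4 after that scaling and 0 and 10 without the KYSE510 DMSO library. KNSTRN, a kinetochore protein, had 5.58 FPKM at 12 h against 50.5 FPKM in DMSO in TE7, and 5.88 against 33.5 FPKM in KYSE510 (-2.65, adjusted p = 0.00184). BMF, a cell death factor of the BCL2 family, fell by 1.70 (adjusted p = 0.00292), the antisense RNA SRP14-AS1 by 1.66 (adjusted p = 0.00624) and C15orf52 by 1.51 (adjusted p = 0.00303). BUB1B, named for its overlap with PAK6, had 11.0 FPKM at 12 h against 42.5 FPKM in DMSO in TE7, and 19.8 against 30.3 FPKM in KYSE510 (-1.23, adjusted p = 0.0247). Around PAK2 20 were tested, 0 rose and 2 fell, CEP19 by 1.91 (adjusted p = 0.00324) and WDR53 by 1.64 (adjusted p = 0.00213), with 2 and 2 after that scaling. The PAK2 counts stayed at 0 and 2 without the KYSE510 DMSO library. Around PAK1 7 were tested, 2 rose and 1 fell, with a median of 0.64, with 3 and 0 after that scaling and 2 and 1 without the KYSE510 DMSO library. Of these 7, AP000580.1, FTH1P16 and RSF1-IT2 lie within the interval of RSF1, which is counted too. The counts and the median around PAK1 thus rest in part on 1 locus. AP000580.1, 491613 bases from the PAK1 start, had 47.5 FPKM at 12 h against 1.53 FPKM in DMSO in TE7, and 26.1 against 2.00 FPKM in KYSE510 (3.72, adjusted p = 0.00108).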

How the data were processed

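Polyadenylated RNA of TE7 and KYSE510 cells was sequenced, per the labels' protocols. The deposited values used are FPKM per gene and library, computed by the authors on hg19; STAR and Cufflinks are named in the submitters' processing notes, with settings not given in the sources used here. A table of the whole series was not used.

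The 15610 genes that reached 1 FPKM in 2 or more libraries entered limma 3.58.1 (R 4.3.3) as log2(FPKM + 1), with variances following the mean, two-sided, adjusted over all of them. A fold change on this scale understates the change of low genes. The main design has 6 conditions and the cell line as a block (5 residual degrees of freedom), since libraries of 1 replicate number come from the same line; their deviations correlated at 0.317 to 0.959. The fits were checked on simulated data. Alternatives were pseudocounts of 0.1 and 5, filters, 2 scalings, no mean trend, no block, another time scale and leaving out libraries. FPKM keep no fragment counts, so no count test was run. Members and lists were chosen with earlier results of these data known. Of each list, up to 4 genes called at 12 h with the largest change are named, plus the super-enhancer genes and the 5 genes most like each kinase; 1 further list is not reported here.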

Additional observations from a re-analysis of the deposited data

Results flagged for a closer look

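In 12 results a kinase moved in opposite directions in TE7 and KYSE510. The difference between the lines was not tested, as each line has 1 library per condition. A shared direction was not general among all genes tested either: at 2 h 29.3% were lower and 24.9% higher within both lines. Against DMSO these shares were 34.9% and 22.4% at 4 h, 41.1% and 19.5% at 6 h, and 52.6% and 16.3% at 12 h. They were 60.3% and 11.2% at 200 nM, and 55.5% and 14.1% for 200 nM against 50 nM. PAK1 makes up 6 of the 12 results, with the change in TE7 minus that in KYSE510 at -1.17 at 2 h, -0.995 at 4 h, -1.33 at 6 h and -1.16 at 12 h of 50 nM THZ1 against DMSO. For 200 nM THZ1 at 6 h it was -2.60 against DMSO and -1.28 against 50 nM at 6 h. In this last comparison, which uses no DMSO library, PAK1 changed by -0.44 in TE7 and 0.84 in KYSE510. The KYSE510 library at 200 nM was itself unlike that at 50 nM for 6 h in some genes. KRT14 was at 2.62 against 514 FPKM, and MYL12A at 390 against 82.1 FPKM, near its 424 FPKM in DMSO. KRT6A, at 930 against 1657 FPKM, was not near its 14.4 FPKM in DMSO. Whether this bears on PAK1 was not tested. PAK6 differed at 50 nM by -2.79 at 2 h, -2.70 at 4 h, -2.90 at 6 h and -3.01 at 12 h, all against the KYSE510 DMSO library at 1.61 FPKM. At 2 h PAK4 differed by -0.552, with a change of -0.53 in TE7 and 0.02 in KYSE510, and PAK2 by 0.492, with 0.05 and -0.44. The KYSE510 DMSO library enters 11 of the 12, and without it no change against DMSO can be computed for KYSE510.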

How the results depend on the processing

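PAK4 kept its sign at 12 h and at 200 nM against DMSO, at 200 nM against 50 nM, at 12 h against 2 h and over the hours in every alternative run. Where a library is left out, its condition keeps 1, which is assumed to vary like the other conditions. Leaving out 1 library at a time gave -1.87 to -1.33 at 12 h, -2.50 to -1.79 at 200 nM, -2.08 to -1.37 between the doses, -1.62 to -1.08 for 12 h against 2 h and -0.144 to -0.086 per hour, and -0.16 to 0.047 for TE7 against KYSE510. PAK4 passed without the replicate block at 12 h (adjusted p = 0.0188), at 200 nM (0.00467), between the doses (0.0156) and for 12 h against 2 h (0.0458), whereas PAK2 did not for 12 h against 2 h (0.18); the block moved no other call than those given for PAK2. Median-of-ratios scaling gave PAK4 -0.75 for 12 h against 2 h, and omission of the 12 h libraries gave -0.064 per hour.

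Without the KYSE510 DMSO library and both 200 nM libraries, PAK4 was at -0.76 at 6 h and at -0.29 in TE7 against KYSE510 (adjusted p = 0.0204). In the same alternative PAK1 turned to -0.40, -0.39 and -0.52 and PAK6 to -0.59, -1.08 and -1.42 at 2, 4 and 6 h. Leaving out single libraries gave PAK1 -0.54 to 0.91, -0.53 to 0.92, -0.66 to 0.79 and -0.85 to 0.60 at 2, 4, 6 and 12 h, -0.58 to 1.10 at 200 nM, -0.64 to 1.03 between doses and -0.042 to 0.026 per hour. For PAK6 it gave -0.46 to 2.12, -0.95 to 1.63, -1.29 to 1.29 and -2.16 to 0.42 at 2, 4, 6 and 12 h, and for the slope difference of PAK2 -0.037 to 0.049.

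Rescaling to equal sums turned PAK1 at 6 h to -0.036, PAK6 at 6 h to -0.075 and PAK2 between doses to 0.0086. Median-of-ratios scaling turned PAK1 to 0.43 at 12 h, 0.27 for 12 h against 2 h and 0.032 per hour, PAK2 to 0.16 between doses and its slope difference to 0.0047. A pseudocount of 5 turned PAK6 at 6 h to -0.18. The slope difference of PAK2 turned to 0.026 on log2(hours + 1) and to 0.059 without the 12 h libraries, where PAK1 turned to 0.010 per hour.

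Of the differences between PAK4 and its relatives, that from PAK1 over the hours weakened without the 12 h libraries (-0.074), where that from PAK2 turned to 0.0078, and that from PAK6 turned to 0.022 without the DMSO libraries. Those between the lines weakened for PAK2 (0.35 and 0.39) and PAK6 (-0.66 and -0.99) without the DMSO and without the 200 nM libraries, where 5 conditions cannot pass the threshold. The causes of the other shifts were not tested.

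Over all genes, 4439 passed at 12 h, against 1657 without the block, 2859 at a mean of at least 5 FPKM, 8166 without those 3 libraries and 2000 to 5949 without single libraries. At 200 nM 6006 passed, against 2795 without the block and 3788 after median-of-ratios scaling. At 6 h 736 passed, against 0 without the block (limma, 3541 at an unadjusted p under 0.05 in the main design), and 0 to 2556 without single libraries. The number of fragments per library is unknown, so precision rests on the authors' bounds, which are widest for PAK6.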
